A study of Caenorhabditis elegans with 6 samples.

Results

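The ceh genes are C. elegans homeobox genes, whose proteins carry a homeodomain. All genes in the count files whose symbol is ceh- followed by digits alone were taken, which gave 63 genes of the 46726 gene identifiers counted. The libraries are polyA RNA-seq of touch receptor neurons, the mechanosensory cells that sense gentle touch, dissociated from L4 animals and sorted as GFP-positive cells. There are 3 libraries from wild-type animals, whose labels name the strain N2, and 3 from mec-8(e398) mutants, whose strain carries the mec-4p::GFP transgene. The methods of the study have the transgene in both genotypes, and the mec-4 promoter marks the touch neurons. MEC-8 is an RNA-binding splicing factor needed for touch neuron function. Each library came from cells pooled over many animals, and the methods describe the replicates as biological.

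Homeodomain proteins bind DNA through a conserved fold and act as transcription factors, many of them as selectors that set the identity of a cell. In the C. elegans nervous system nearly every neuron class is defined by its own combination of homeobox genes, so most of these genes are known for a few cell types and a small number are known for broad expression. In the touch neurons the identity is set by the LIM homeodomain protein MEC-3 with the POU protein UNC-86, neither of which carries a ceh name. The question put to the files here was which ceh genes have reads in every library of sorted touch neurons, which are genes of other cell types, and whether any differs between wild type and mec-8.

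Reads counted on genes ranged from 15334872 to 33094142 a library, and 3 counts, taken as the smallest amount that counts as detection, came to 0.0907 to 0.196 CPM, the count scaled to a common total of gene reads in each library. Libraries of 1 genotype differed widely, with a common biological coefficient of variation of 1.20. All 10 of the touch neuron markers listed had at least 3 counts in every library, and their summed level was 1620 to 14706 CPM in wild type and 1026 to 11523 CPM in mec-8. The 5 body wall muscle markers listed summed to 3195 to 46539 CPM in wild type and 1854 to 28862 CPM in mec-8. Their sum was above that of the touch neuron markers in every library but wild-type replicate 1. The 5 sperm markers summed to 1.29 to 316 CPM in wild type and 158 to 7762 CPM in mec-8. Sums over different genes do not give the share of each kind of cell. Wild-type replicate 1 stood apart in its alignments to several places, 70024247 against 1922629 to 11988379 in the others, and in the share of reads on more than 1 gene, 11.1% against 2.62% to 3.04%. The count of mec-8 itself was 143 to 817 in wild type and 59 to 775 in the mutant libraries, which overlap, and counts per gene do not show the e398 allele.

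Of the 63 ceh genes, 18 (28.6%) had at least 3 counts in every library. For the 19617 protein-coding genes the share was 47.0%, and for 38 other homeobox genes listed for comparison it was 13 of 38 (34.2%). Another 9 ceh genes reached 3 counts in 5 libraries, 5 in 4 libraries, 7 in 3, 8 in 2 and 9 in a single library. The remaining 7 (11.1%) reached 3 counts nowhere, against 12.3% of protein-coding genes. Asking for at least 1 CPM in every library left 9 ceh genes, and asking for 10 counts left 12. Without mec-8 replicate 3 the number with 3 counts in all remaining libraries was 23, and without wild-type replicate 1 it was 21.

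By library, and in the order of replicates 1, 2 and 3, at least 3 counts were found for 29, 44 and 42 ceh genes in wild type. For the mec-8 libraries the numbers were 34, 44 and 26. After each library was thinned to the smallest total there were 29, 44 and 42 such genes in the wild-type libraries and 33, 42 and 25 in the mec-8 ones. Wild-type replicate 1 and mec-8 replicate 3 were thus the poorest in ceh genes, and depth moved these numbers by 2 genes at most. The same pair held the fewest protein-coding genes, 62.9% and 61.1% against 71.0% to 79.1% in the other libraries. A set of 21 ceh genes had 0 counts in both, among them ceh-75 and ceh-84, which had 0 counts in every library. The share of all genes with 0 counts in both was not computed, so nothing is read from this number. The genotypes overlapped.

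**Figure D1:**
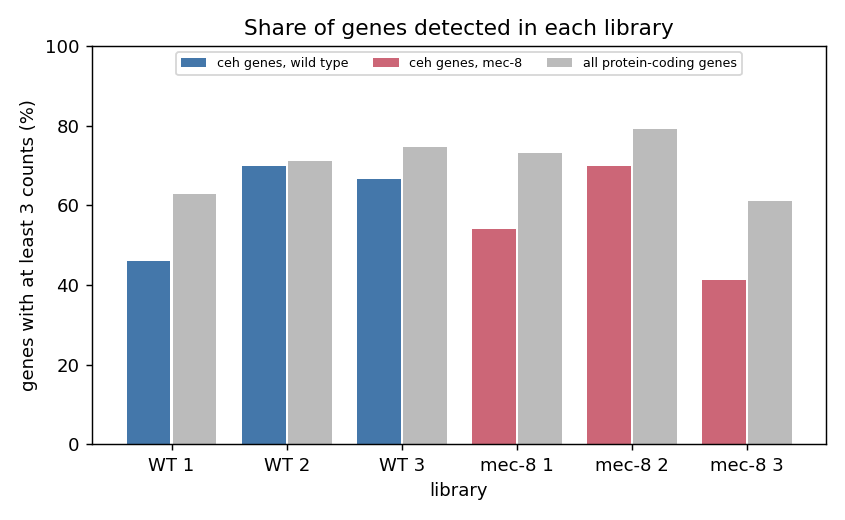
Share of genes with at least 3 counts (vertical axis, %) in each of the 6 libraries, for the 63 ceh genes (blue wild type, red mec-8) and for all protein-coding genes (grey). Wild-type replicate 1 (46.0%) and mec-8 replicate 3 (41.3%) have the lowest shares of ceh genes, and in every library the ceh share is below the protein-coding one.

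**Figure D2:**
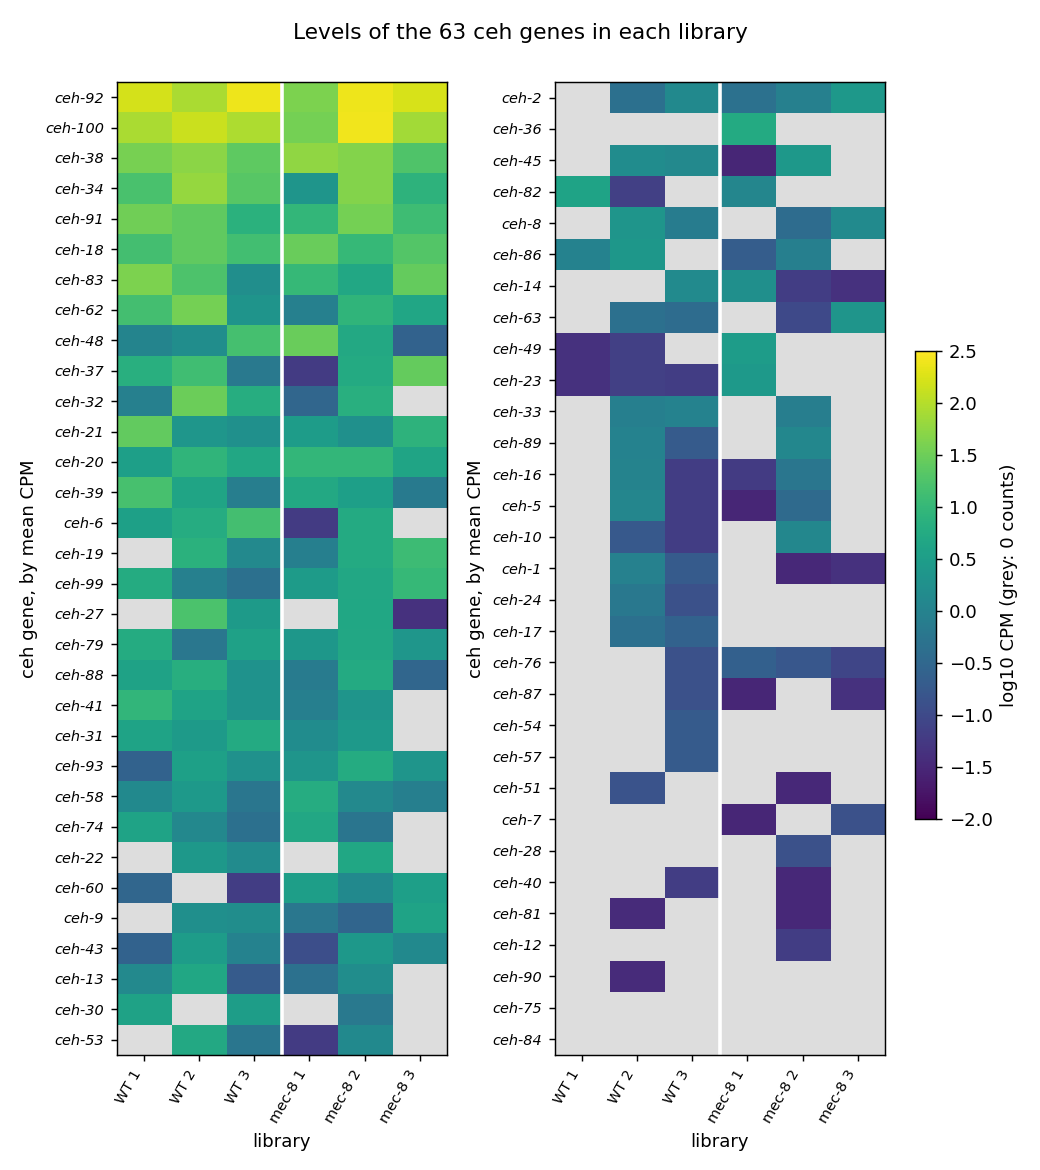
Level of each of the 63 ceh genes (rows, ordered by mean CPM) in each library (columns, wild type left of the white line), as log10 CPM, with 0 counts in grey. The genes at the top of the left panel have colour in all 6 columns, and from the middle of the order down the grey cells gather in wild-type replicate 1 and mec-8 replicate 3.

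The ceh genes together took 0.0510%, 0.0588% and 0.0480% of gene reads in wild type. In mec-8 they took 0.0278% (95% Wilson interval 0.0273% to 0.0284%), 0.0752% (0.0742% to 0.0761%) and 0.0417%. The highest and the lowest share were both in mec-8 libraries. A pair of genes, ceh-92 and ceh-100, made up 27.8% to 68.5% of all ceh counts in a library. Without this pair the summed level was 151 to 362 CPM in wild type and 174 to 251 CPM in mec-8. The mean level over the 6 libraries was at least 10 CPM for 8 members, at least 1 CPM for 32 and below 1 CPM for 31.

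Of the 2 genes that led the family, ceh-92 lies on chromosome III (WBGene00013431, 11581600 to 11589133 in WBcel235). Its level, with replicates 1, 2 and 3 in that order here and below, was 165, 85.9 and 240.4 CPM in wild type and 41.0, 244 and 166 CPM in mec-8. The low library was mec-8 replicate 1, and the genotypes overlapped. The gene ceh-100 (WBGene00012584, chromosome II, 12582178 to 12603680) stood at 86.1, 139.8 and 88.7 CPM in wild type and at 36.5, 257 and 76.0 CPM in mec-8. It too was lowest in mec-8 replicate 1 and highest in mec-8 replicate 2.

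Levels of different genes were set side by side per kilobase of merged exon. On that scale ceh-92 had a mean of 64.3 CPM per kb, ceh-100 26.9, ceh-34 23.4, ceh-38 13.7, ceh-91 9.54, ceh-62 9.30, ceh-83 9.29 and ceh-18 7.41. For ceh-92 the value was above that of ceh-100 in 6 of 6 libraries, although its range, 16.8 to 99.8 CPM per kb, overlapped the 8.62 to 60.6 CPM per kb of ceh-100. The next neighbours in the order, ceh-100 over ceh-34 and ceh-34 over ceh-38, each held in 5 of 6 libraries, ceh-62 over ceh-83 in 3 and ceh-83 over ceh-18 in 2, with overlapping ranges throughout. For comparison, the touch neuron selector mec-3 had a mean of 38.97 CPM per kb and unc-86 had 18.99.

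The touch neuron selectors were themselves uneven. Wild-type libraries held 1826, 253 and 238 counts of mec-3 and mec-8 libraries 6015, 266 and 445. The counts of unc-86 were 647, 248 and 210 and then 2879, 206 and 495. Both genes were highest in mec-8 replicate 1 and next highest in wild-type replicate 1, while ceh-92 and ceh-100 were lowest in mec-8 replicate 1.

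The steadiest members were ceh-20, ceh-18 and ceh-38, whose highest library was 2.75, 2.83 and 3.15 times the lowest. The PBX homologue ceh-20, a cofactor of Hox proteins used in many tissues, had 3.45, 8.75 and 4.96 CPM in wild type and 9.49, 9.39 and 4.23 CPM in mec-8. The POU gene ceh-18, known from the gonadal sheath, where it signals to oocytes, had 14.3, 25.3 and 13.7 CPM in wild type and 29.6, 10.5 and 19.6 CPM in mec-8. Its level was above 10 CPM in all 6 libraries. Another gonadal sheath gene, lim-7, had 9, 217 and 94 wild-type counts and 167, 178 and 0 mec-8 counts, so its order of libraries was not that of ceh-18.

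The ONECUT genes pair a cut domain with a homeodomain, and 6 of the members belong to them. The broadly expressed ceh-38 (WBGene00000459, chromosome II, 6951526 to 6955409) had 37.996, 52.3 and 24.2 CPM in wild type and 56.7, 46.4 and 18.01 CPM in mec-8. Both genotypes were lowest in replicate 3. Its exons share 26 bases with those of tra-2, and the library kit does not mark strand, so a few of its reads could belong to either gene. The pan-neuronal ONECUT gene ceh-48 stood at 1.08, 1.58 and 14.9 CPM in wild type and at 30.2, 5.09 and 0.264 CPM in mec-8. It was above 10 CPM in wild-type replicate 3 and mec-8 replicate 1, with 1000 counts in the latter and 6 counts in mec-8 replicate 3. Pan-neuronal marker genes other than homeobox genes summed to 130, 143 and 96.4 CPM in wild type and 507, 160 and 85.4 CPM in mec-8. That sum was also highest in mec-8 replicate 1 and lowest in mec-8 replicate 3, but was not raised in wild-type replicate 3, where ceh-48 was. In mec-8 replicate 1, unc-104 alone made 299 CPM of it, and rab-3, ric-4, snt-1 and rgef-1 were also highest there. The other markers differed. The highest library was wild-type replicate 1 for snb-1, wild-type replicate 3 for unc-11, mec-8 replicate 2 for unc-10 and mec-8 replicate 3 for unc-64.

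The X-linked ONECUT genes ceh-41, ceh-21 and ceh-39 lie next to each other between 1846608 and 1856172, with gaps of 103 and 1137 bases. The gene ceh-39 is one of the X-linked signals that count the X chromosomes in sex determination. Its level was 15.4, 4.27 and 0.848 CPM in wild type and 5.23, 3.41 and 0.705 CPM in mec-8. For ceh-21 the values were 25.8, 2.30 and 1.83 CPM in wild type and 3.08, 1.82 and 8.06 CPM in mec-8. The values of ceh-41 were 9.33, 4.05 and 2.02 CPM in wild type and 0.876, 2.18 and 0 CPM in mec-8. All 3 neighbours were highest in wild-type replicate 1. That library also had the highest summed level of touch neuron markers, 14706 CPM, and of germline markers, 7546 CPM against 1070 to 4018 in the others, of which the yolk receptor gene rme-2 alone made 4644. Another germline gene, glh-1, was highest in wild-type replicate 3. The touch neuron markers were divided by gene. In wild-type replicate 1, mtd-1, mec-17, mec-18, mec-1 and mec-7 were highest, while mec-3, mec-4, mec-10, mec-12 and mec-14 were highest in mec-8 replicate 1. The part of other cells in the 3 levels was not tested. The remaining ONECUT gene, ceh-49, had 100 counts in mec-8 replicate 1 and at most 2 in any other library.

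The pharynx is a muscular feeding organ with its own small nervous system, and several members are known from it. The sine oculis homologue ceh-34, a selector of pharyngeal neurons, came next to ceh-92 and ceh-100 in level per kilobase. Its values were 16.3, 61.9 and 21.3 CPM in wild type and 2.21, 45.7 and 8.19 CPM in mec-8, highest in both replicate 2 libraries. Its neighbour and relative ceh-33, 3616 bases away, had 0, 24 and 15 wild-type counts and 0, 25 and 0 mec-8 counts. The NK2 gene ceh-22, which activates pharyngeal muscle genes, had 0, 2.55 and 1.4998 CPM in wild type and 0, 4.73 and 0 CPM in mec-8. Its counts were 0 in the same 3 libraries as those of ceh-33. Pharyngeal muscle markers summed to 244, 851 and 1135 CPM in wild type and to 118, 680 and 152 CPM in mec-8, lower in those 3 libraries, and all 5 of them had at least 3 counts in every library. By gene, myo-1, myo-2 and tnc-2 followed the sum, and tni-4 and myo-5 did not. For tni-4, wild-type replicate 1 (12.2 CPM) was above wild-type replicate 3 (8.54 CPM). For myo-5, mec-8 replicate 1 (29.4 CPM) was above wild-type replicate 3 (26.1 CPM). The pharyngeal neuron markers ser-7, flp-21 and nlp-3 had another order, with sums of 0.907, 2.83 and 2.61 CPM in wild type and 15.5, 3.41 and 0 CPM in mec-8. They were highest in mec-8 replicate 1, where ceh-34 was lowest.

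The Optix homologue ceh-32, active in the head, stood at 0.907, 30.5 and 6.26 CPM in wild type and at 0.302, 6.91 and 0 CPM in mec-8. A gene of the MC pharyngeal neurons, ceh-19, had 0, 7.42 and 1.30 CPM in wild type and 0.876, 5.69 and 12.02 CPM in mec-8. The EMX homologue ceh-2, known from pharyngeal neurons, was at 0, 0.466 and 1.37 CPM in wild type and at 0.484, 0.926 and 2.55 CPM in mec-8. Unlike ceh-32, both of these were highest in mec-8 replicate 3. The M4 neuron gene ceh-28 had 4 counts in mec-8 replicate 2 and 0 elsewhere, and ceh-24, another NK2 gene, had 18 counts in wild-type replicate 2 and 2 in wild-type replicate 3.

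A group of 17 members had both replicate 2 libraries above the other 4, among them ceh-34, ceh-32, ceh-22, ceh-27, ceh-13, ceh-16, ceh-43 and ceh-100. This was 27.9% of the 61 members with a count, beside 16.4% of protein-coding genes with a count, and the pattern was chosen after the values were seen. The 6 hypodermis and seam markers listed summed to 355, 667 and 234 CPM in wild type and to 33.1, 347 and 59.8 CPM in mec-8, so that wild-type replicate 1 lay just above mec-8 replicate 2. Among these markers, dpy-7, rol-6 and nhr-73 had both replicate 2 libraries on top, while elt-3 and clec-1 were highest in wild-type replicate 1, and grd-10 was higher there than in mec-8 replicate 2. What part cells other than touch neurons have in these values was not tested. In sorted pools a smaller number of such cells and less RNA per cell cannot be told apart.

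Hypodermal members and a Hox gene were also highest in the replicate 2 libraries. The engrailed homologue ceh-16, a seam cell gene, had 0, 29 and 1 wild-type counts and 2, 18 and 0 mec-8 counts, so it passed the detection floor in the replicate 2 libraries alone. Its exons share 57 bases with polk-1 on the other strand, which had 6880 and 10977 counts in those libraries. Some of the few ceh-16 reads could therefore belong to either gene. The Distal-less homologue ceh-43, known from head hypodermis and dopaminergic neurons, had 0.259, 3.12 and 0.978 CPM in wild type and 0.121, 2.51 and 1.37 CPM in mec-8. The labial Hox gene ceh-13 had 1.34, 4.73 and 0.196 CPM in wild type and 0.483, 1.59 and 0 CPM in mec-8. The dopaminergic markers cat-2, trp-4 and dat-1 summed to 1.34, 2.87 and 4.04 CPM in wild type and to 1.15, 11.5 and 0.0440 CPM in mec-8, highest in mec-8 replicate 2.

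Genes of single sensory neuron classes differed in how many libraries they were seen in. The OTX gene ceh-36, a selector of the AWC and ASE chemosensory neurons, had 189 counts (5.71 CPM) in mec-8 replicate 1 and 0 counts in the other 5 libraries. In wild type, 0 counts allow up to 0.108 to 0.196 CPM at a floor of 3 counts. The AWC gene odr-1, a guanylyl cyclase, had 0, 1 and 11 wild-type counts and 238, 28 and 0 mec-8 counts. The channel gene tax-2 had 0, 148 and 1 wild-type counts and 17, 25 and 0 mec-8 counts. The ASE receptor cyclases gcy-5 and gcy-7 and the olfactory receptors odr-10 and str-2 were at 0 in mec-8 replicate 1. The neighbour ceh-37, 10805 bases from ceh-36 and an OTX gene of the AWB neurons, went the other way. It had 6.87, 13.02 and 0.652 CPM in wild type and 0.0604, 5.62 and 26.9 CPM in mec-8, lowest in the library where ceh-36 was found.

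The LIM gene ceh-14, which acts in the AFD thermosensory neurons, had 0, 0 and 1.43 CPM in wild type and 1.72, 0.0662 and 0.0440 CPM in mec-8, so it was at similar levels in 1 library of each genotype. The AFD receptor cyclases gcy-8, gcy-18 and gcy-23 summed to 6.35, 5.67 and 0.913 CPM in wild type and to 5.47, 2.28 and 0 CPM in mec-8. Of these, gcy-8 was highest in mec-8 replicate 1, gcy-18 in wild-type replicate 1 and gcy-23 in wild-type replicate 2. The counts of ceh-23 were 87 in mec-8 replicate 1 and at most 2 in the other 5. With ceh-36 and ceh-49 it is one of 3 members that reached 3 counts in this library alone.

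The PHOX2 homologue ceh-17, known from the ALA and SIA neurons, had 13 counts in wild-type replicate 2, 4 in wild-type replicate 3 and 0 in all other libraries. The mesodermal gene ceh-51, which acts in the early embryo, had 0, 4 and 0 wild-type counts and 0, 1 and 0 mec-8 counts. The labels give L4 animals, and such counts lie at the floor. Of the 7 members under 3 counts in every library, ceh-75 and ceh-84 had 0 counts throughout. The other 5 were ceh-12, a motor neuron gene of the MNX family, the PBX gene ceh-40, ceh-81, ceh-87 and ceh-90.

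**Figure D3:**
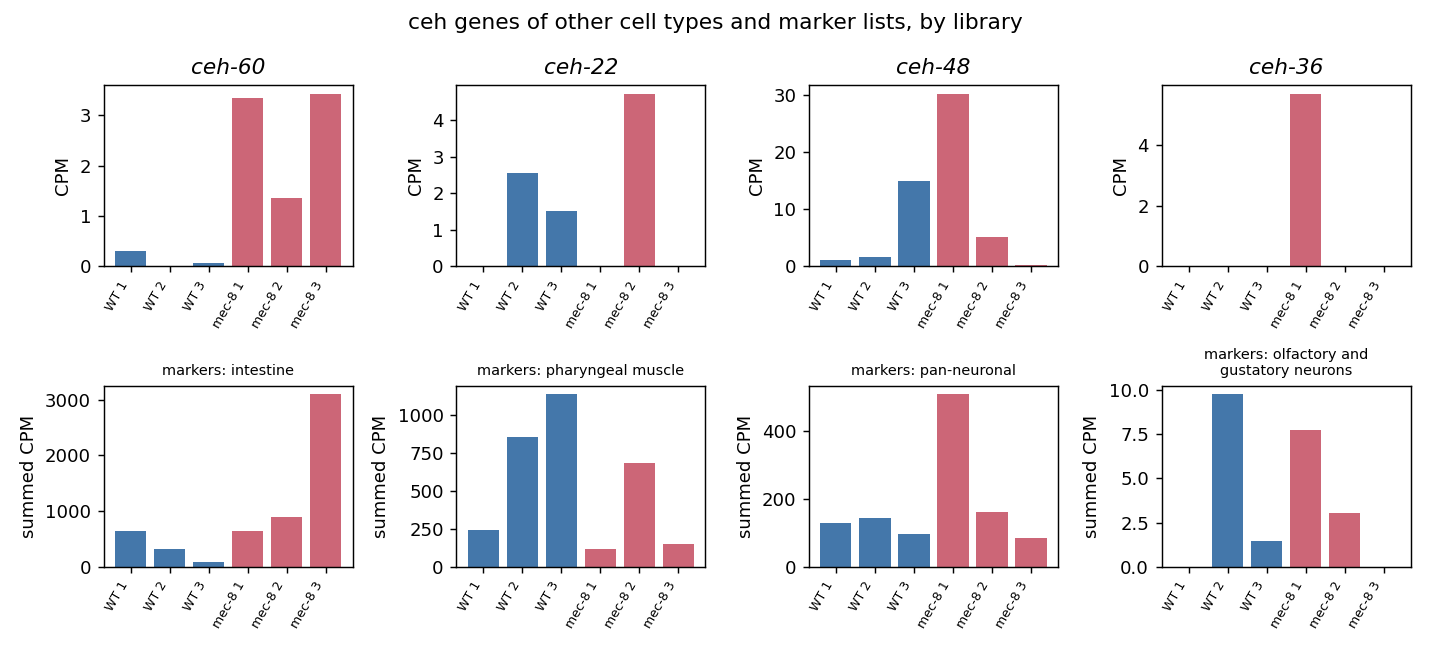
Top row: CPM of ceh-60, ceh-22, ceh-48 and ceh-36 in each library (blue wild type, red mec-8). Bottom row: summed CPM of marker genes for the intestine, pharyngeal muscle, neurons in general, and olfactory and gustatory neurons in the same libraries. All axes are linear and start at 0. The ceh-60 bars are 1.36 to 3.44 CPM in mec-8 and at most 0.302 CPM in wild type, while ceh-36 has a single bar.

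The CUX homologue ceh-44, known as a pan-neuronal gene, is not among the members, since no identifier in the annotation has that symbol. In the RefSeq gene table it covers 2530620 to 2543068 of chromosome III, inside the identifier named cone-1 in the annotation (2530613 to 2546420). That identifier was at 49.7, 208 and 95.8 CPM in wild type and 98.8, 261 and 135 CPM in mec-8, and its reads cannot be divided between the genes. It was highest in both replicate 2 libraries. The pseudogene ceh-85 had 0 counts in all libraries.

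For genotype, TMM-normalized counts were fitted with edgeR after a filter on low counts, and quasi-likelihood p-values were adjusted by the Benjamini-Hochberg method. The filter kept 14614 genes, 37 of the 63 members among them, and the others had too few libraries above the minimum of the filter. None of the 37 passed an adjusted p of 0.05, nor did any of the 14614 genes (0%). Before adjustment 1 member (ceh-60) had a p under 0.05 with a higher level in mec-8, where 2.87% of all genes tested did, and 0 members with a lower level, where 0.349% did. With DESeq2, 44 genes were called over the whole table and 0 of them were ceh genes. The fold change was above 0 for 14 members and below 0 for 23, with a median log2 fold change of -0.19 beside 0.01 over all genes tested.

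**Figure D4:**
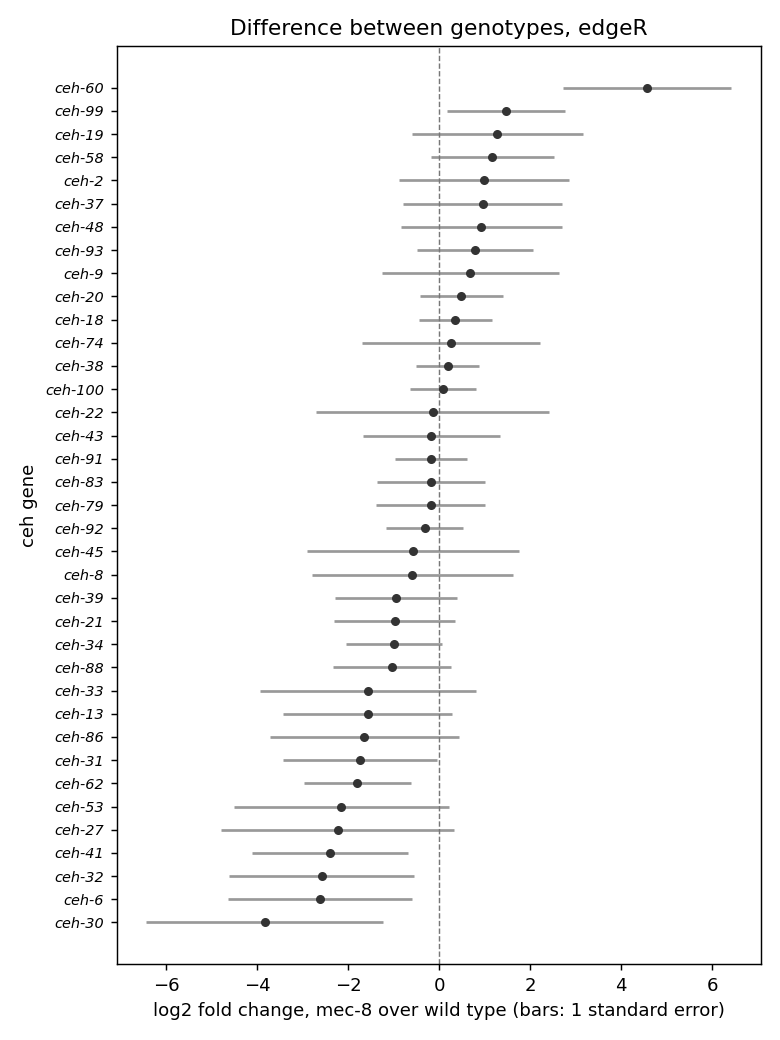
Log2 fold change of mec-8 over wild type for the 37 ceh genes tested, ordered by size, with bars of 1 standard error, from edgeR. The values run from -3.84 (ceh-30) to 4.57 (ceh-60), and 23 of 37 lie below 0.

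Among the 37 members that passed the filter, the largest fold change was that of ceh-60 (WBGene00017690, chromosome X, 6522596 to 6530146), a PBC homeobox gene of the intestine that acts with UNC-62 on yolk genes. Wild-type libraries held 7, 0 and 1 counts of it (0.302, 0 and 0.0652 CPM) and mec-8 libraries 111, 41 and 78 (3.35, 1.36 and 3.44 CPM). All mec-8 libraries were above all wild-type ones. With so few wild-type counts the gene passed the filter through the mec-8 libraries alone, so that it had to differ to be tested, and its p and direction are given as a description. The log2 fold change was 4.57 (SE 1.85), with an unadjusted p of 0.0409 and a Benjamini-Hochberg adjusted p of 1.0 by the quasi-likelihood test of edgeR. The direction was higher in mec-8 under every alternative that kept the gene. The unadjusted p was 0.0565 with the replicate block and 0.0628 with no filter, where ceh-36, found in a single library, had a larger fold change. Leaving out any library but wild-type replicate 1 gave an unadjusted p of 0.0585 to 0.124, and leaving out that library gave 0.0313.

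The 5 intestinal markers listed, all with at least 3 counts in every library, summed to 634, 324 and 87.4 CPM in wild type and to 636, 889 and 3095 CPM in mec-8, and the highest wild-type and the lowest mec-8 sum were nearly equal. The log2 fold changes were 3.08 (SE 1.05) for elt-2, the GATA factor of the intestine, 3.05 (SE 1.09) for ges-1, 3.49 (SE 1.05) for ifb-2, 3.67 (SE 1.71) for mtl-2 and 0.66 (SE 0.780) for act-5. None passed, with adjusted p of 1.0 by edgeR for all 5, and the libraries of mtl-2 and act-5 overlapped between the genotypes. The part of intestinal RNA in the ceh-60 difference was not tested. The exons of ceh-60 share 72 bases with ets-4 on the other strand, and ets-4 had 101, 652 and 276 wild-type counts and 2553, 884 and 864 mec-8 counts. Its log2 fold change was 1.77 (SE 0.925). Reads on the shared bases cannot be assigned by strand. The 6 yolk genes listed had another order, with a sum of 2.48 to 5537 CPM in wild type and of 46845, 2.02 and 3458 CPM in mec-8. The cofactor unc-62 had a log2 fold change of -0.89 (SE 0.842).

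Of the 37 members tested, 1 (ceh-60) had all mec-8 libraries above all wild-type ones, where 5.50% of all genes tested did, and 1 (ceh-31) had all of them below, where 1.49% did. With a single member each way, nothing is read from these counts. The BarH homologue ceh-31 stood at 4.02, 2.87 and 5.54 CPM in wild type and at 1.57, 2.61 and 0 CPM in mec-8. The nearest libraries were wild-type replicate 2 and mec-8 replicate 2. Its log2 fold change was -1.75 (SE 1.69, unadjusted p = 0.334, edgeR). The neighbour ceh-30, 3096 bases away and known for the survival of male head neurons, had 90, 0 and 49 wild-type counts and 0, 20 and 0 mec-8 counts. With 1 library left out, 2 to 8 of these members had no overlap, and the share over all 14614 genes rose as well. Without mec-8 replicate 1, 2 or 3 it was 2, 8 and 3 members, beside 15.4%, 22.4% and 10.6% of all genes. Leaving out wild-type replicate 1, 2 or 3 gave 5, 4 and 6 members, beside 17.5%, 13.6% and 21.1%. The members' shares, 5.41% to 21.6%, were below those of all genes at each of these settings. In TMM-scaled CPM 3 members (8.11%) did not overlap, beside 7.81%. Leaving out a library cannot create overlap, so ceh-60 and ceh-31 were bound to remain at those settings. In TMM-scaled CPM too ceh-60 was higher and ceh-31 lower.

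The 12 members with at least 10 counts in every library overlapped between the genotypes. For the pair that led the family the log2 fold change was -0.33 (SE 0.839) for ceh-92 and 0.08 (SE 0.730) for ceh-100. For the steady members it was 0.48 (SE 0.911) for ceh-20, 0.35 (SE 0.801) for ceh-18 and 0.18 (SE 0.694) for ceh-38. All of these were smaller than 1 standard error. Below 0 stood ceh-34 at -0.99 (SE 1.06), ceh-21 at -0.98 (SE 1.34) and ceh-39 at -0.95 (SE 1.33).

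Values of the remaining 4 complete this set. For ceh-62 they were 14.1, 35.6 and 2.15 CPM in wild type and 0.907, 8.80 and 4.54 CPM in mec-8, with a log2 fold change of -1.80 (SE 1.18). The values of ceh-83 were 40.4, 17.4 and 1.70 CPM in wild type and 10.5, 5.06 and 27.3 CPM in mec-8 (log2 fold change -0.19, SE 1.19). For ceh-83 the lowest library, wild-type replicate 3, and the highest, wild-type replicate 1, were of the same genotype. Its neighbour ceh-82, 424 bases away, had 93, 2 and 0 wild-type counts and 38, 0 and 0 mec-8 counts. The next gene along, ceh-81, had at most 1 count in any library.

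The gene ceh-91, 27.6 kb from ceh-92, had 33.2, 25.0 and 7.50 CPM in wild type and 9.73, 36.1 and 12.9 CPM in mec-8 (log2 fold change -0.18, SE 0.794). It shared with ceh-92 its highest library, mec-8 replicate 2, but not its lowest. The values of ceh-79 were 5.87, 0.610 and 3.78 CPM in wild type and 2.45, 4.995 and 2.33 CPM in mec-8 (log2 fold change -0.19, SE 1.20). Its lowest and highest libraries were both wild type.

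**Figure D5:**
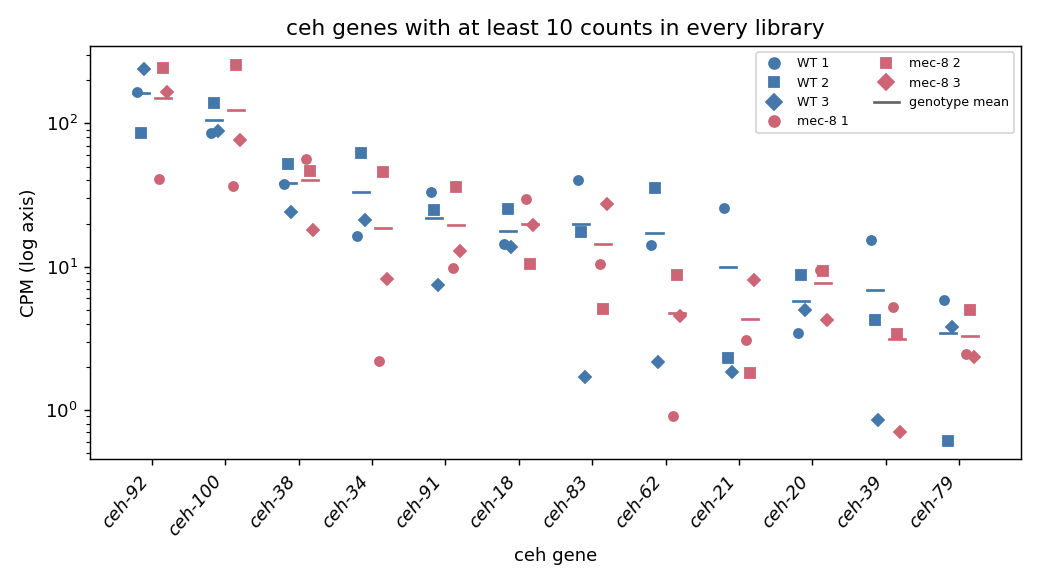
CPM (log axis) of the 12 ceh genes with at least 10 counts in every library, ordered by mean. Blue points are wild-type and red points mec-8 libraries, with a shape for each replicate number and a short line at each genotype mean. For every gene the ranges of the genotypes overlap.

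The other members with 3 counts in every library had under 10 counts in at least 1 of them. These were ceh-43 and ceh-48, above, and ceh-58, ceh-88, ceh-93 and ceh-99. Their lowest libraries were at 0.587, 0.308, 0.259 and 0.456 CPM and their highest at 6.19, 6.67, 5.79 and 10.2 CPM, in that order. The exons of ceh-88 share 809 bases with C49C3.6 on the same strand, so its counts are less certain than those of the rest. In all, 17 members share exon bases with another gene and 46 with none. Among the 17 are ceh-5 with ocrl-1 (73 bases), ceh-19 with mcm-3AP (49 bases) and ceh-63 with tag-52 (18 bases). In each of these the other gene had more counts in every library.

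Of the 38 other homeobox genes listed, 27 passed the filter and 0 were called, with 13 fold changes above 0 and 14 below and a median log2 fold change of -0.03. The touch neuron selectors had log2 fold changes of 1.31 (SE 1.39) for mec-3 and 1.41 (SE 1.12) for unc-86. For the Hox gene egl-5, which sets posterior touch neuron features, it was 0.35 (SE 2.22), with 3, 22 and 24 wild-type counts and 95, 0 and 1 mec-8 counts.

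Of the remaining members, the POU gene ceh-6, known from the excretory cell, stood at 3.67, 6.10 and 14.3 CPM in wild type and at 0.0604, 5.52 and 0 CPM in mec-8. The NK2 gene ceh-27 had 0, 478 and 43 wild-type counts and 0, 146 and 1 mec-8 counts. Among the members detected in 5 libraries, ceh-9 had its highest value, 4.14 CPM, in mec-8 replicate 3 and ceh-74 had 4.99 CPM in mec-8 replicate 1 as its highest. Reads of ceh-45, the goosecoid homologue, and of ceh-53, ceh-89, ceh-5 and ceh-10 were highest in the replicate 2 libraries, with at most 145 counts in any library. The counts of ceh-10, known from the AIY and CAN neurons, were 0, 5 and 1 and then 0, 37 and 0. The RIA interneuron gene ceh-8 had 0, 62 and 12 wild-type counts and 0, 12 and 32 mec-8 counts. Another 2 members, ceh-63, a gene of the DVC interneuron, and ceh-86, peaked at 51 counts in mec-8 replicate 3 and at 67 counts in wild-type replicate 2. Low members not yet given were ceh-1, at most 27 counts, ceh-76, at most 8, and ceh-7, ceh-54 and ceh-57, at most 3 each. No member of this group other than ceh-6 and ceh-27 exceeded 6 CPM in a library.

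By chromosome, the members detected in every library were 6 of 13 on II, 4 of 8 on III, 2 of 4 on IV, 2 of 12 on V, 4 of 18 on X and 0 of 8 on I. The same shares over all genes of each chromosome were not computed, so nothing is read from these counts. Some of the members detected in every library lie near one another, as ceh-91 does to ceh-92 on III and ceh-21 to ceh-39 on X. Such neighbours may not be independent of each other, which was not tested.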

How the data were processed

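Per the labels, the polyA RNA libraries were made with a NEBNext Single Cell/Low Input kit, and the submitters' processing notes name STAR and HTSeq. The authors deposited raw counts of reads per gene, without normalization. Strand setting, version and annotation of the counting are not given in the sources used here. Reads on overlapping genes are therefore uncertain. Of 46726 identifiers, 46364 were matched to Ensembl release 115 (WBcel235) for symbols, coordinates and exon lengths.

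Depth was 15334872 to 33094142 gene reads. Lines of reads on no gene (0.385% to 3.57%), on more than 1 gene (2.62% to 11.1%) and aligned to several places were left out of totals. Levels are CPM over gene reads, and intervals (Wilson, 95%) and floors (3 counts) cover counting error only. Genotypes were compared with edgeR 4.0.16 (R 4.3.3): TMM, filterByExpr by genotype, quasi-likelihood test, Benjamini-Hochberg adjustment over all genes tested, threshold 0.05. Standard errors were taken as |log2 fold change| divided by the root of the F statistic. As alternatives, limma 3.58.1 voom with quality weights, DESeq2 1.42.0, a replicate block, scaling by upper quartile or by library size alone, a minimum of 10 counts in every library or no filter, and each library left out were run. The fits were checked on simulated counts with a dispersion, the square of the coefficient of variation, of 0.05. The data spread far more, with a common coefficient of variation of 1.20. The check therefore does not show which changes the fits could recover in these libraries.

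Members and lists were chosen with earlier results of these data known. Values are given in every library for members with at least 10 counts in every library, with no overlap between genotypes or with an unadjusted p under 0.05, and for those of a well-known cell type. Fold changes are given for the first 3 kinds. No sequence was used here.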

Additional observations from a re-analysis of the deposited data

How the results depend on the processing

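No ceh gene was called under any alternative run, and over all genes DESeq2 called 44 where edgeR and its alternatives, limma voom and each left-out library called 0 (edgeR unadjusted p under 0.05: 419 higher, 51 lower). Detection in every library fell from 18 to 9 members at 1 CPM, was 12 to 19 at other minimums and 18 to 23 with 1 library left out. Of 14 members followed, ceh-34 and ceh-62 kept their sign in every alternative run. So did ceh-31 and ceh-60 where they were tested, which leaves out the minimum of 10 counts in every library. Both were followed because their libraries did not overlap between genotypes, so nothing is read from their kept sign. Log2 fold changes crossed 0, within 1 standard error, under upper-quartile normalization for ceh-38 (-0.0245), under DESeq2 for ceh-100 (-0.0870), under 10 counts in every library for ceh-100 (-0.0036), and under voom for ceh-18 (-0.38), ceh-38 (-0.0156), ceh-79 (0.89), ceh-91 (0.29) and ceh-100 (-0.0108). The cause was not tested. The median over the 14614 genes tested was -0.11 with upper-quartile normalization. With DESeq2 it was -0.23, over a larger set of 23115 genes, so this value is not like for like. With 1 library left out the ranges were -0.78 to 0.27 for ceh-100, -0.38 to 0.68 for ceh-18, -0.10 to 0.70 for ceh-20, -1.80 to 1.14 for ceh-21, -0.59 to 0.49 for ceh-38, -2.10 to 0.48 for ceh-39, -0.71 to 0.22 for ceh-79, -1.07 to 0.92 for ceh-83, -0.76 to 0.24 for ceh-91 and -0.71 to 0.24 for ceh-92. Members without overlap numbered 2 to 8 of 37 with 1 library left out, beside 10.6% to 22.4% of all genes, and 3 in TMM-scaled CPM, beside 7.81% (both chosen after seeing the data). Same-numbered libraries deviated from their genotype means with correlations of 0.0574, 0.471 and -0.167 for replicates 1, 2 and 3. Libraries of unlike number had correlations of -0.338 to 0.273. The replicate 2 libraries thus deviated alike, more than any other pair across genotypes, while the other numbers showed no such pairing. The reason was not tested. With the replicate block 0 ceh genes and 0 of all genes were called, and ceh-79 (0.23) and ceh-100 (-0.17) crossed 0.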
